A study of Yarrowia lipolytica with 35 samples.

Results

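Yarrowia lipolytica DSM-3286 held at pH 3.5 was compared with the same strain held at pH 5.5, both with glycerol as the sole carbon source and both sampled at 32 h, in the stationary phase that follows when nitrogen runs out. The libraries were chosen by their labels: 3 at pH 3.5 and 3 at pH 5.5, of 35 in the whole series. RNA was sequenced from biomass of bioreactor cultures, and poly(A) RNA was selected before the libraries were made. Further groups are set beside the comparison: DSM-3286 on glucose at 32 h (3 libraries at pH 3.5 and 2 at pH 5.5), DSM-21175 on glycerol at 32 h (3 at pH 3.5 and 3 at pH 5.5), and DSM-3286 on glycerol in growth phase at 8 h and pH 5.5 (3 libraries). The design text calls the samples biological triplicates and does not say whether each came from its own bioreactor run, so p-values measure the spread between these samples. DSM-3286 is 1 strain, the growth phase was sampled at pH 5.5 only, and at 32 h the pH of a culture and anything else its course has changed cannot be told apart.

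Y. lipolytica is an oleaginous, strictly aerobic yeast that grows well on glycerol and that switches between budding cells and filaments. When nitrogen is exhausted it keeps taking up carbon and turns it into lipid, citric acid or polyols, and the pH of the medium is known to bear on which of these it makes. In fungi, ambient pH is read through the Rim (Pal) pathway, which ends in the zinc-finger factor Rim101: at neutral to alkaline pH the protein is processed to its active form, and in Y. lipolytica it is needed for genes expressed at higher pH, such as that of an extracellular alkaline protease.

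Sequencing depth was 10, 14.7 and 15.06 megareads counted at pH 3.5, and 6.7, 11.47 and 10.31 megareads at pH 5.5. Log2 expression correlated at r = 0.9923 to 0.9956 across genes between the pH 3.5 libraries and at 0.9787 to 0.9792 between the pH 5.5 libraries, and the first principal component of the 6 libraries, with 85.5% of the variance, separated the pH groups. The strain label held: 2 genes that had reads in every other DSM-3286 library and none in DSM-21175 were present in all 6 libraries, with 109 reads or more, and 1 gene with the reverse pattern had 0 reads in them.

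Most of the genome changed with pH. Of 6537 genes tested, 2085 were higher and 2240 lower at pH 3.5 with an adjusted p under 0.05 in edgeR's quasi-likelihood test; the shares are 66.2% called in either direction, 31.9% higher and 34.3% lower. Many of these changes were small. At least 2-fold changes were called for 586 higher and 976 lower genes, at least 4-fold changes for 98 higher and 436 lower genes, and at least 16-fold changes for 17 higher and 147 lower genes. The middle of the distribution of log2 fold changes ran between -0.63 and 0.5 (25th and 75th percentiles), with the lower tail longer than the upper one: the 5th percentile was -2.65 and the 95th percentile 1.3. The ranges of CPM (a gene's scaled count per megaread) in the pH 3.5 and pH 5.5 libraries did not overlap for 4765 genes, which is 72.9% of those tested. In a bulk sample, fewer cells that express a gene and less of its RNA per cell cannot be told apart.

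**Figure D1:**
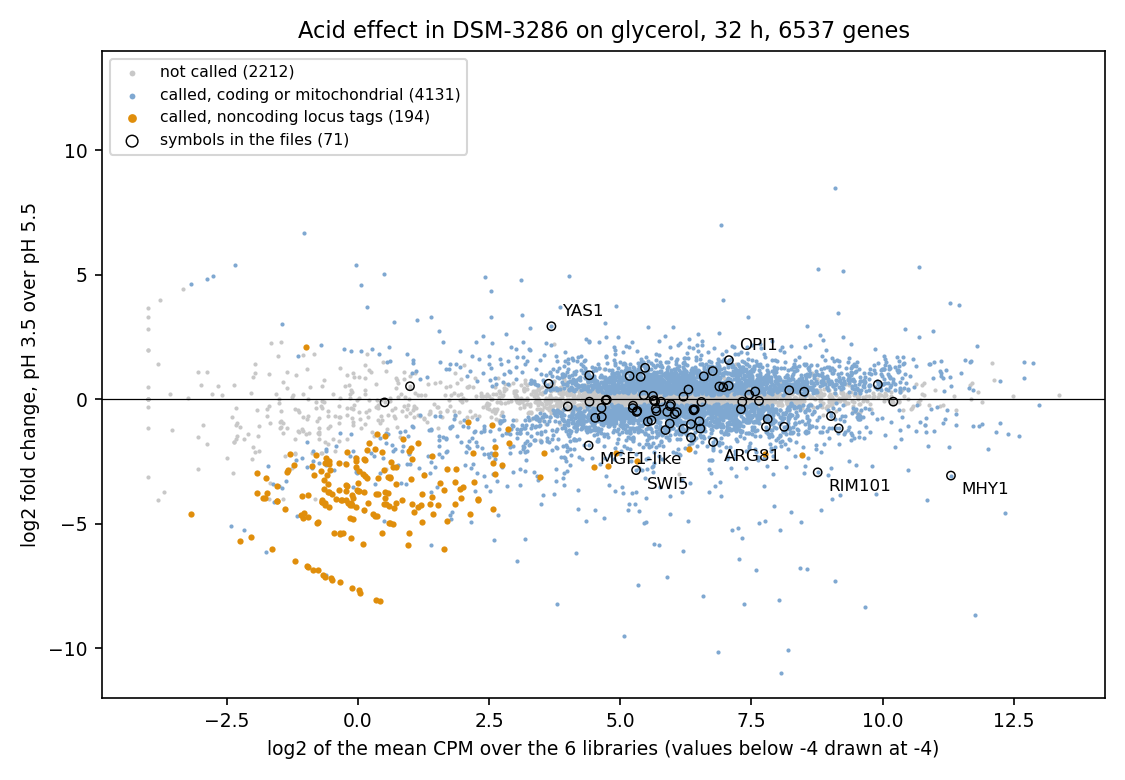
Each point is 1 of 6537 genes, with the log2 of its mean CPM over the 6 libraries on the x axis and its log2 fold change (pH 3.5 over pH 5.5) on the y axis. Grey points were not called, blue points are called coding or mitochondrial genes, orange points are called noncoding locus tags and open circles are the 71 genes with a symbol in the files. The orange points lie almost entirely below 0, and MHY1, RIM101, SWI5 and YAS1 stand clear of the band formed by most genes.

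Fold changes moved with gene length. Of 3325 coding genes longer than 1200 bp, 23.1% were called higher and 42.6% lower, with a median log2 fold change of -0.20. Of 2150 genes of 600 to 1200 bp, 43.7% were called higher and 21.6% lower (median 0.23), and of 713 genes of 300 to 600 bp, 47.7% were higher and 18.8% lower (median 0.32). The 107 genes up to 300 bp lay between these, with a median of 0.06. The medians of the 3 longer classes, longest first, had the same order at smaller size with pH in DSM-3286 on glucose (-0.15, 0.18 and 0.24) and in DSM-21175 on glycerol (-0.06, 0.09 and 0.14). A fit with an offset per library for length, chosen after the data were seen, called 2339 genes higher and 1929 lower at pH 3.5. Of the genes called, 3546 had a call in the same direction in both fits. Calls of symbols that were lost or turned with the offset are named below.

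The files give 71 genes a symbol, most of them transcription factors or related regulators. The submitters chose these genes, so their counts are no independent evidence of a direction. At pH 3.5, 15 rose, 34 fell and 22 were not called. That is 69.0% called, against 66.2% of all genes, and the median log2 fold change was -0.28, against -0.02 for all genes. These are long genes, with a median of 1605 bp against 1251 bp for coding genes tested, and with the length offset 18 were called higher and 24 lower, with a median of -0.11. The excess of falls over rises among the symbols thus shrank with the offset. All 16 symbols that changed at least 2-fold kept their call and direction under it, and 36 of the 49 called kept theirs.

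The 4 regulators of pH, calcium and cell wall responses were called lower, by very different amounts. RIM101 had 106, 93.1 and 102 CPM in the pH 3.5 libraries and 770.3, 760.3 and 777 CPM in the pH 5.5 libraries. Its level was thus 7.65 times lower at pH 3.5, with no overlap between the groups (log2 fold change -2.94 ± 0.13, SE; adjusted p = 7.91e-17). The growth-phase libraries at pH 5.5 had 117, 134 and 127 CPM, close to the pH 3.5 libraries at 32 h, so that the pH 5.5 libraries at 32 h were the high ones of the 3 groups. CRZ1, which in Saccharomyces cerevisiae encodes the transcription factor switched on by calcineurin, had 36.8, 30.8 and 29.2 CPM at pH 3.5 and 56, 58.7 and 65.1 CPM at pH 5.5 (log2 fold change -0.90 ± 0.16, adjusted p = 2.4e-05). RLM1, a MADS-box factor of the cell wall integrity pathway in S. cerevisiae, fell by 0.48 on the log2 scale, but with the length offset its value was -0.23 and was not called. SKN7, a response regulator of osmotic and oxidative stress in that yeast, fell by 0.28, a change that lost its call without replicate 2 of either pH group (adjusted p = 0.0678 without the pH 3.5 library and 0.0732 without the pH 5.5 library). The median of the 4 was -0.69, and 3 of them were called with the length offset (median -0.45), while 34.3% of all genes were called lower.

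Among regulators of cell shape, MHY1 and HOY1 carried the change. MHY1 encodes a zinc-finger protein that Y. lipolytica needs to form hyphae. It had 528, 534 and 557 CPM at pH 3.5 and 4658, 4358 and 4539 CPM at pH 5.5. The difference was 8.37-fold, the largest fall among the symbols (log2 fold change -3.07 ± 0.37, adjusted p = 9.51e-08), and no library of the pH 5.5 group came near one of the pH 3.5 group. As with RIM101, growth-phase libraries (636, 713 and 677 CPM) lay near the pH 3.5 level. Per length, MHY1 was also the more abundant of the pair, with 491 ± 5.22 FPKM at pH 3.5 and 4106 ± 133 FPKM at pH 5.5, against 44.5 ± 2.99 and 341 ± 4.95 FPKM for RIM101 (SD, n = 3 each). HOY1, a homeobox protein also required for hyphae in Y. lipolytica, had 193, 175 and 162 CPM at pH 3.5 and 388, 363 and 395 CPM at pH 5.5 (-1.11 ± 0.14, adjusted p = 4.93e-08). Its growth-phase level was far lower than either, at 28.2 to 31 CPM. SFL1, a repressor of flocculation genes in S. cerevisiae, was called lower (-0.45 ± 0.11) but not with the length offset (-0.15). TUP1, a general co-repressor in S. cerevisiae, was not called (-0.07, and 0.26 with the offset, where it was), nor was NRG1 (-0.40 ± 0.28) or RME1 (0.52 ± 0.68).

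All 5 GATA-type zinc-finger genes in the set fell, where 34.3% of all genes did. In S. cerevisiae such factors turn genes for the use of poor nitrogen sources on or off. GZF2 had 43.9, 33.6 and 26.7 CPM at pH 3.5 and 87.5, 73.2 and 84.5 CPM at pH 5.5 (log2 fold change -1.24 ± 0.16, adjusted p = 1.47e-07). GZF3 had 145, 122 and 149.6 CPM at pH 3.5 and 297, 287 and 316 CPM at pH 5.5 (-1.11 ± 0.13, adjusted p = 1.3e-08). GZF1 (-1.18 ± 0.29), GZF5 (-0.98 ± 0.12) and GZF4 (-0.85 ± 0.15) lay close by, the CPM ranges of the pH groups overlapped for none of the 5 (nor for 72.9% of all genes), and all 5 were also called with the length offset, at -0.49 to -1.39. Their growth-phase levels did not run in 1 direction: GZF3 and GZF5 were below both 32 h groups (65.7 to 76.9 and 13.4 to 16 CPM), while GZF4 was above both (75.1 to 81.6 CPM).

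Genes named for amino acid, pyrimidine and nitrogen use split. ARG81, which controls arginine metabolism in S. cerevisiae, had 50.5, 52 and 49.9 CPM at pH 3.5 and 178, 164 and 161 CPM at pH 5.5 (-1.72 ± 0.09, adjusted p = 7.35e-16). PPR1, the activator of the pyrimidine pathway there, had 45.3, 47.7 and 42 CPM at pH 3.5 and 85.6, 95.5 and 126 CPM at pH 5.5 (-1.19 ± 0.14). In the other direction, PUT3, the activator of proline use in S. cerevisiae, had 65, 61.6 and 61.6 CPM at pH 3.5 and 27.3, 28.3 and 23.1 CPM at pH 5.5 (1.26 ± 0.13, adjusted p = 1.56e-09). PTR3, part of that yeast's plasma membrane amino acid sensor, rose as well: 147, 147 and 153 CPM at pH 3.5 stood against 72.6, 66.8 and 65.1 CPM at pH 5.5 (1.13 ± 0.12, adjusted p = 2.13e-09). The CPM ranges of the pH groups overlapped for none of these 4 genes, nor for 72.9% of all genes. Of 13 genes in the group, 2 rose, 6 fell and 5 were not called, with a median of -0.35. The share called was 61.5%, near the 66.2% of all genes. LEU3 and DAL81 (both -0.41) and ARO80 (-0.75) were among the 6 and were not called with the length offset, with which GCN4 was called lower (-0.29) and UGA3 higher (0.33).

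YAS1 and OPI1, the genes tied to alkane and phospholipid metabolism, showed the largest rises among the symbols. YAS1 encodes a basic helix-loop-helix protein that in Y. lipolytica activates cytochrome P450 genes for alkane use. It had 21.9, 20.1 and 26.5 CPM at pH 3.5, from 199 to 350 reads, and 2.64, 2.45 and 3.87 CPM at pH 5.5, from 17 to 38 reads. The groups were far apart (7.6-fold; log2 fold change 2.93 ± 0.27, adjusted p = 2.91e-10), and growth-phase libraries were as low as those at pH 5.5 and 32 h, at 1.63 to 2.24 CPM. OPI1, in S. cerevisiae the repressor of phospholipid synthesis genes, had 218, 194 and 193 CPM at pH 3.5 and 63, 66.6 and 73.3 CPM at pH 5.5 (1.57 ± 0.24, adjusted p = 2.07e-06).

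**Figure D2:**
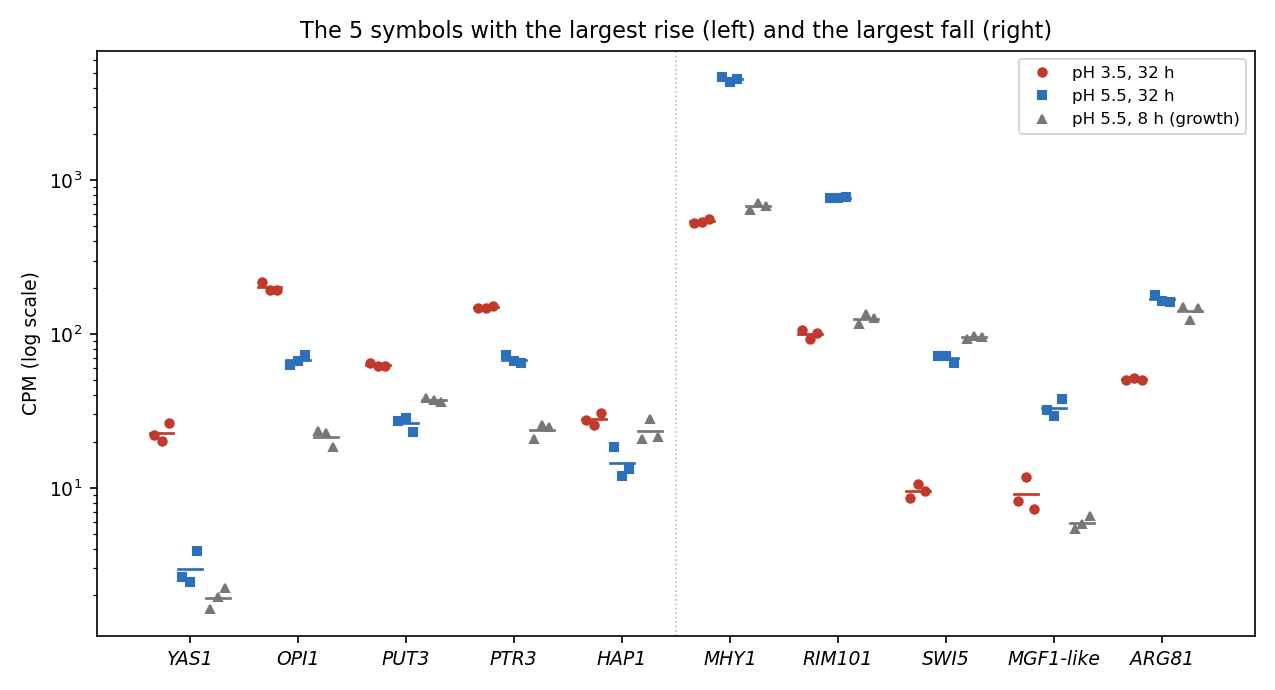
CPM (log scale) in each library of the 5 symbols with the largest rise and the 5 with the largest fall at pH 3.5; red circles are pH 3.5 and blue squares pH 5.5, both at 32 h, grey triangles are growth phase at 8 h and pH 5.5, and lines are means. The red and blue points of each gene do not overlap. For MHY1 and RIM101 the grey points lie near the red ones, and for YAS1 and SWI5 near the blue ones.

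The cell cycle genes were led by 1 member. SWI5, in S. cerevisiae a transcription factor that acts as cells leave mitosis, had 8.56, 10.6 and 9.54 CPM at pH 3.5 and 72.1, 71.6 and 64.4 CPM at pH 5.5. That is a 7.2-fold lower level at pH 3.5 (log2 fold change -2.85 ± 0.15, adjusted p = 4.01e-15), and growth-phase libraries had 92.7 to 97.6 CPM. MCM1, a MADS-box factor with many partners in S. cerevisiae, was slightly higher (0.36 ± 0.08). MBP1, a subunit of the G1/S factor MBF there, was slightly lower (-0.51 ± 0.13), a call that was lost with the length offset (-0.20). YOX1 (0.16 ± 0.17) and YHP1 (-0.13 ± 1.02) were not called.

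Stress and protein folding genes moved both ways. RPN4, which in S. cerevisiae drives transcription of proteasome genes, had 389.8, 380.0 and 288 CPM at pH 3.5 and 806, 806 and 774 CPM at pH 5.5 (-1.17 ± 0.11, adjusted p = 3.67e-10). MSN4, a general stress factor in that yeast, was also lower (-0.68 ± 0.18). HAC1, in S. cerevisiae the transcription factor of the unfolded protein response, had 1163, 1244 and 1069 CPM at pH 3.5 and 768, 797 and 737 CPM at pH 5.5 (0.59 ± 0.10, adjusted p = 4.45e-06). OTU1, a deubiquitinase that works with Cdc48 in S. cerevisiae, was higher by 0.92 ± 0.09. The heat shock factor gene HSF1 was not called (-0.10 ± 0.12) nor was WAR1 (-0.04 ± 0.17), and YAP3 (0.30 ± 0.08) lost its call with the length offset.

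Of 6 genes named for carbon source control, none was called higher and 3 were called lower, a share of 50% against 34.3% of all genes called lower and 66.2% called in either direction. RDS2 and ERT1, which in S. cerevisiae act on gluconeogenesis, fell by 1.0 and 0.60 on the log2 scale (SE 0.08 and 0.09). RDS2 had 52.3, 55.9 and 54.8 CPM at pH 3.5 and 105, 105 and 116 CPM at pH 5.5. CAT8, a factor of the same process, was called at -0.26 ± 0.11 (adjusted p = 0.0369), but its groups overlapped, the call was lost without replicate 1 or 3 of either pH group (adjusted p = 0.0712 to 0.215), and the length offset turned it to 0.12. RSF2, TYE7 and AZF1 were not called (-0.20, 0.62 and 0.18).

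All 4 genes for oxygen, heme and metal responses were called, 3 higher and 1 lower, where 66.2% of all genes were called. HAP1, a heme-dependent activator in S. cerevisiae, had 27.8, 25.6 and 30.7 CPM at pH 3.5 and 18.3, 12 and 13.2 CPM at pH 5.5 (0.96 ± 0.20, adjusted p = 0.000158). MAC1, a copper-sensing factor there, rose by 0.54 ± 0.12, and IXR1, a repressor of hypoxic genes, by 0.51 ± 0.14. ZAP1, the zinc-responsive activator, fell by 0.80 ± 0.20. Among 6 genes for ribosome maturation and its transcription, TFC2 (0.93 ± 0.19), in S. cerevisiae the factor that brings RNA polymerase III to the 5S rRNA genes, and REI1 (0.48 ± 0.12) rose. JJJ1 (-0.71 ± 0.13), which works with REI1 in late maturation of the large ribosomal subunit in S. cerevisiae, fell. BUD20, SFP1 and CRF1 were not called, with SFP1 just outside the threshold (0.31, adjusted p = 0.0501) and called with the length offset (0.61). The share of this group called was 50%, against 66.2% of all genes.

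The remaining 13 symbols had 2 rises, 7 falls and 4 genes not called, with a median of -0.36. The share called was 69.2%, near the 66.2% of all genes. USV1, a zinc-finger transcription factor in S. cerevisiae, had 46.1, 38.5 and 40.6 CPM at pH 3.5 and 132, 109.8 and 123 CPM at pH 5.5 (-1.54 ± 0.12, adjusted p = 9.38e-12). MGF1-like had 8.24, 11.8 and 7.27 CPM at pH 3.5 and 32.1, 29.5 and 37.6 CPM at pH 5.5 (-1.86 ± 0.52). SWI1, which in S. cerevisiae encodes a subunit of the SWI/SNF chromatin remodeller, fell by 0.89 ± 0.09, and YJU6 rose by 0.90 ± 0.16. Of the smaller changes, ECM5 (-0.51), DEF1 (-0.47), PRP9 (-0.36), MGF1 (-0.52) and ELF1 (0.39) were not called with the length offset, which turned ECM5 to 0.13. The calls of DEF1, ELF1 and MGF1 were also lost without single libraries: DEF1 without pH 5.5 replicate 1 (adjusted p = 0.065), ELF1 without replicate 3 of either group (0.0739 without the pH 3.5 library and 0.0666 without the pH 5.5 library), and MGF1 without replicate 2 or 3 of either group (0.0708 to 0.154).

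**Figure D3:**
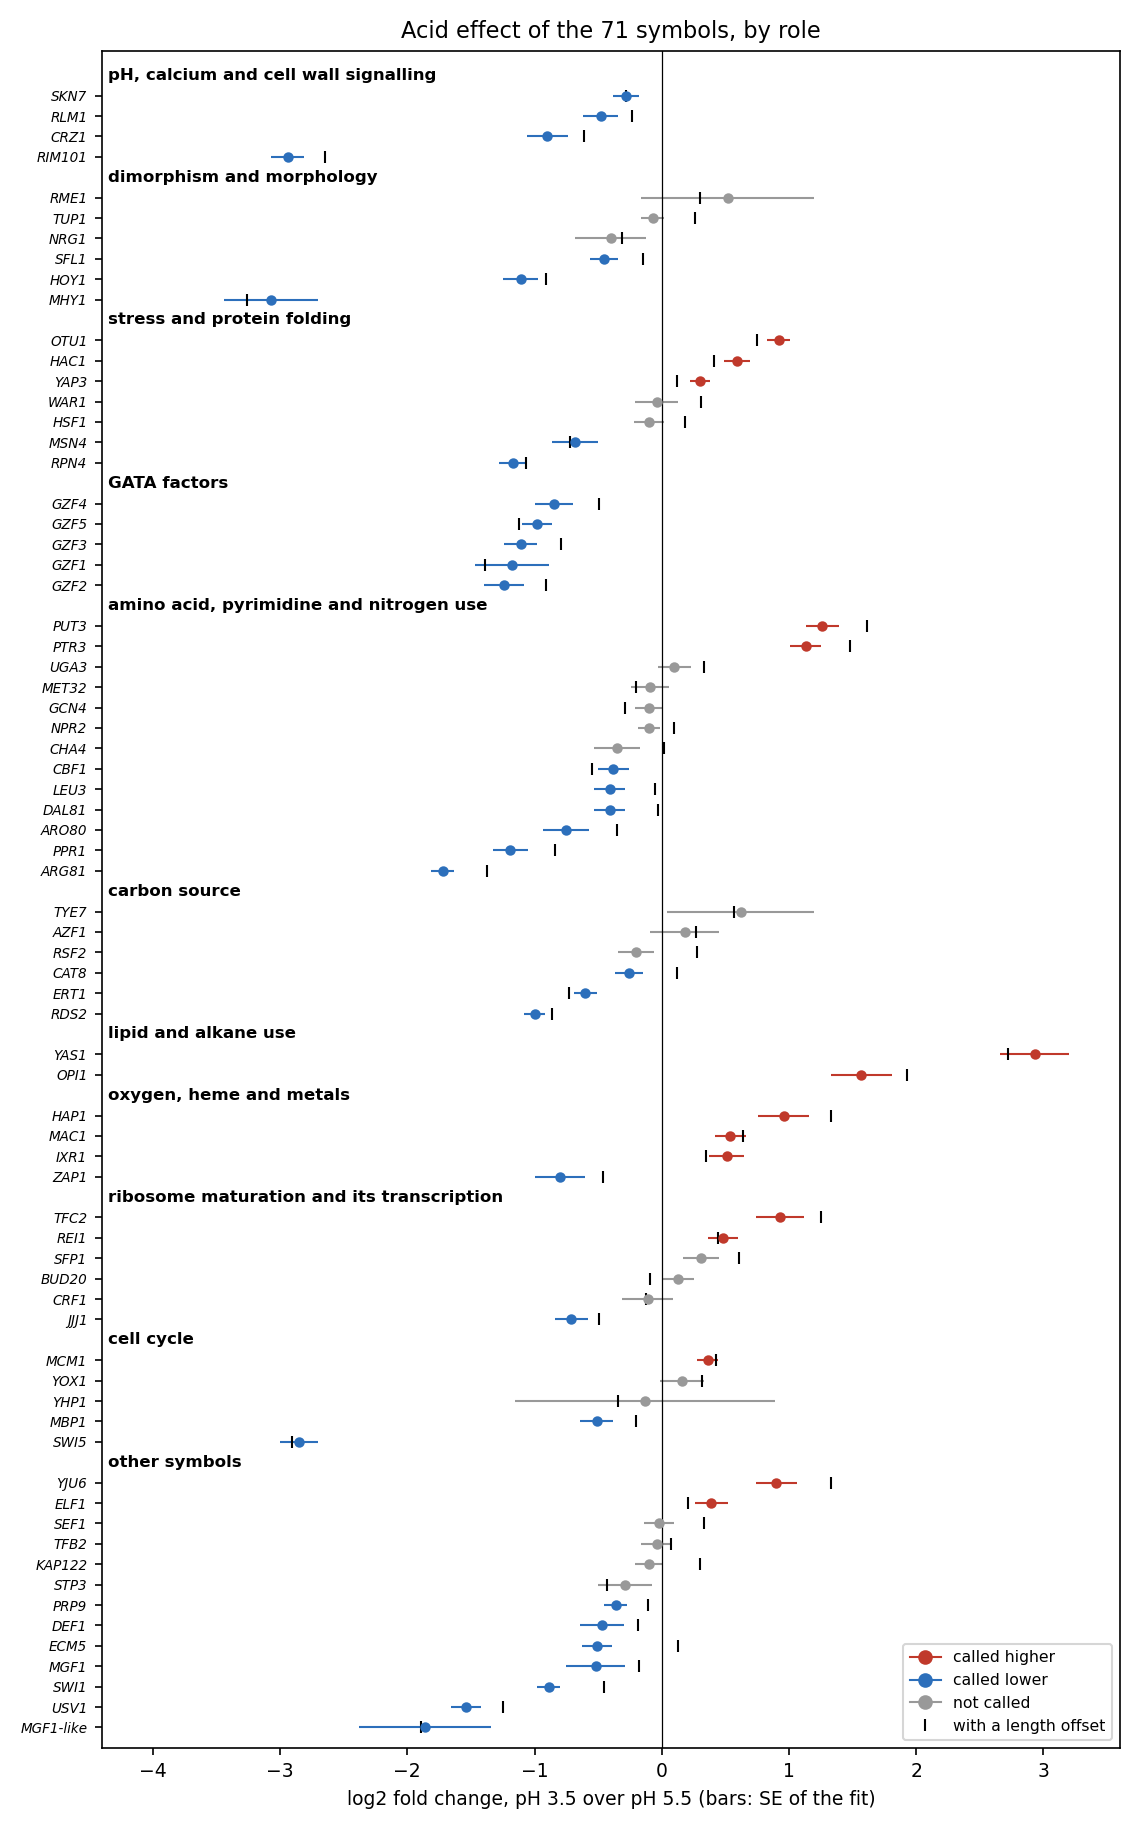
Log2 fold change (pH 3.5 over pH 5.5; bars are the SE of the fit) of all 71 symbols, grouped by role. Red is called higher, blue is called lower, grey is not called, and black ticks give the value with a length offset. For many genes the tick lies outside the SE bar, as for LEU3 (-0.41 ± 0.12, and -0.05 with the offset) and PTR3 (1.13 ± 0.12, and 1.48). Among the called genes the ticks cross 0 for CAT8 and ECM5.

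Noncoding genes fell as a class. The table lists 639 noncoding locus tags, chiefly tRNA and rRNA genes by the reference annotation, and 227 had enough reads for the test: 1 was higher at pH 3.5, 193 (85%) were lower and 33 were not called, against 34.3% lower among all genes. tRNA genes took 45.3, 52.7 and 53.9 reads per megaread at pH 3.5 and 544, 414 and 391 at pH 5.5. rRNA genes took 15.2, 16.5 and 16.7 reads per megaread at pH 3.5 and 135, 110.1 and 106 at pH 5.5. The groups did not overlap in either class. Of 164 tRNA genes tested 137 were lower and none higher, with a median log2 fold change of -3.72, or -3.61 when the 16 genes with 0 reads in every pH 3.5 library are set to the value that 3 reads over the group would give. Of 41 rRNA genes 36 were lower and 1 higher, with a median of -3.45, or -3.16 with 3 such genes at that bound. Mitochondrial genes had 0.00339 to 0.00583% of reads at pH 3.5 and 0.0109 to 0.0653% at pH 5.5, and 7 of 15 were called lower. Poly(A) selection removes most RNA of all these classes, so the values count what passed it, and the part that selection or RNA quality has in the difference was not tested.

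The share of reads on noncoding genes was also lower at pH 3.5 in the other groups, though fewer single genes were called. In DSM-3286 on glucose, noncoding genes took 0.0195 to 0.0235% of reads at pH 3.5 and 0.0617 to 0.0657% at pH 5.5, and in DSM-21175 on glycerol 0.0492 to 0.0647% at pH 3.5 and 0.0932 to 0.112% at pH 5.5. The shares in DSM-3286 on glycerol were 0.0308 to 0.0352% at pH 3.5 and 0.166 to 0.215% at pH 5.5, so the pH 5.5 libraries on glycerol were the highest of these groups. Growth-phase libraries had 0.0859 to 0.0979%. On glucose 79 of the 227 noncoding genes were called lower and 1 higher (34.8% lower, against 23.4% of all genes). In DSM-21175 13 were called lower, which at 5.73% is below the 13.4% of all genes, and 214 were not called. For the difference of the pH effect between glycerol and glucose, 18 of 227 noncoding genes were called, each with the lower value on glycerol; that is 7.93%, against 14% of all genes with a lower value and 28% called in either direction. For the difference between DSM-3286 and DSM-21175, 78 were called, each with the lower value in DSM-3286, or 34.4% against 21.8% of all genes with a lower value and 41.6% called in either direction.

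**Figure D4:**
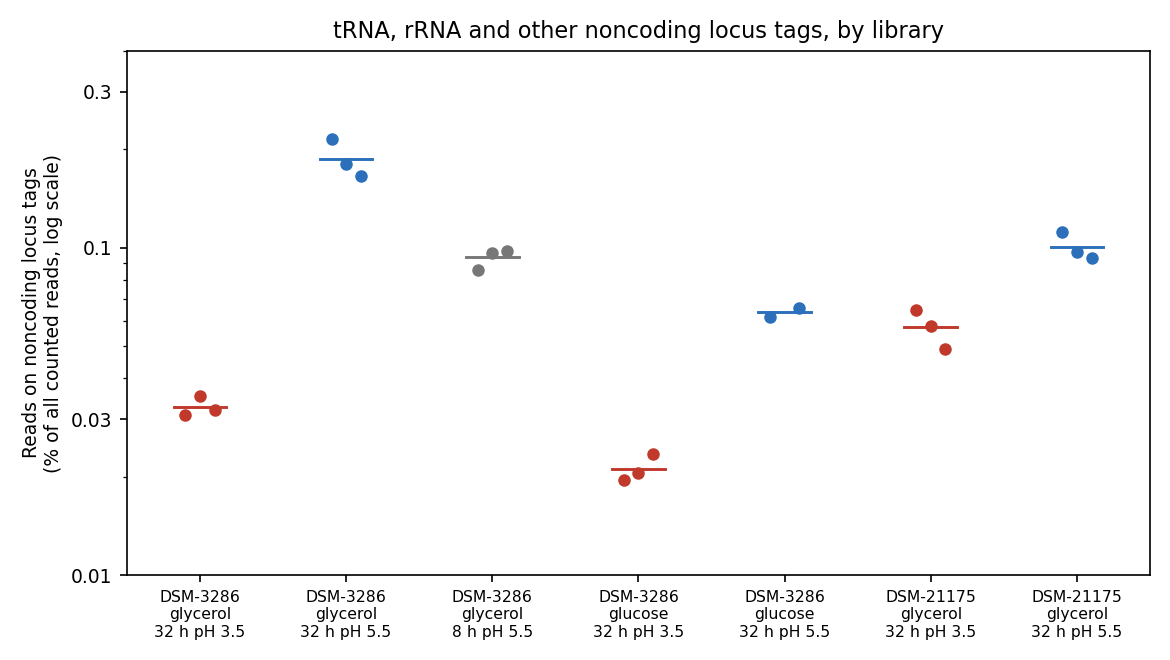
Share of counted reads on noncoding locus tags (log scale) in each library; red is pH 3.5, blue is pH 5.5 and grey is growth phase, and lines are means. In each pair of groups the red points lie below the blue ones, with the widest gap in DSM-3286 on glycerol.

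The files and the reference give no symbol for most genes, and the ones with the largest changes are known here by locus tag only. Among genes with a mean log2 CPM of at least 3, YALI0D19338g showed the largest rise, with 1025, 1036 and 1206 CPM at pH 3.5 and 2.17, 3.26 and 3.46 CPM at pH 5.5 (log2 fold change 8.48 ± 0.48, adjusted p = 1.27e-13). It was lower still in growth phase, at 0.204 to 0.619 CPM, and it rose with acid in DSM-3286 on glucose (7.32 ± 0.55) and in DSM-21175 on glycerol (9.12 ± 0.49). YALI0C13024g came second, with 222, 222 and 276 CPM at pH 3.5 and 4.5, 1.36 and 0.509 CPM at pH 5.5 (7.0 ± 0.56), but its growth-phase libraries at pH 5.5 had 50.7 to 82.3 CPM. Leaving out 1 library at a time gave 6.49 to 7.96, the highest without pH 5.5 replicate 1. It rose on glucose too (5.08 ± 0.90, adjusted p = 6.08e-05). In DSM-21175 it was not called (0.95 ± 0.43), and the difference between the strains was (6.05 ± 0.70, adjusted p = 2.64e-07).

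The largest falls took genes to a handful of reads. YALI0A00110g had 3, 4 and 2 reads at pH 3.5 and 3194, 5071 and 6434 reads at pH 5.5. Scaled for depth, the pH 5.5 level was 2143.0 times the pH 3.5 level, with an exact 95% counting interval of 1128.6 to 4687.5. It was also nearly silent in growth phase, at 0 to 0.102 CPM. On glucose DSM-3286 had 0.401 to 0.535 CPM at pH 3.5 and 683 to 784 CPM at pH 5.5, and DSM-21175 on glycerol had 9.28 to 12.3 CPM at pH 3.5 and 1533 to 1987 CPM at pH 5.5, so that the gene was low with acid in all 3 settings. YALI0C15807g had 2, 2 and 3 reads at pH 3.5 and 1574, 2820 and 1967 at pH 5.5, a ratio of 1192.3 with an interval of 578.4 to 2966.9. The size of both falls depends on how low counts are treated. The fitted log2 fold changes were -11.01 for YALI0A00110g and -10.15 for YALI0C15807g, and limma on the deposited log2 values gave -7.2 and -6.27. Both intervals were computed on reads summed over the libraries of each group. They cover counting error only and leave out the spread between libraries. Reads that stem from the same molecule also cannot be told apart. On-off patterns of this kind were few: 1 gene had at least 10 CPM in all pH 3.5 libraries and under 1 CPM in all pH 5.5 libraries, and 10 genes had the reverse.

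The 5 protein-coding genes with the highest mean at pH 3.5, none of which has a symbol in the files, averaged 7451 to 11179 CPM at pH 3.5 and 3479 to 9955 CPM at pH 5.5. Of the 5, 3 rose (log2 fold changes 1.44, 1.48 and 0.84), 1 was slightly lower (-0.22, adjusted p = 0.0304), and the most abundant one was not called (0.17, adjusted p = 0.154). They were picked by their level at pH 3.5, which favours genes that are high there. The top 10 genes of a library held 6.65 to 7.3% of its reads at pH 3.5 and 7.34 to 7.5% at pH 5.5.

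The same change of pH was then read in the same strain on glucose. There 3027 genes (46.3%) were called, and the median absolute log2 fold change was 0.37, against 0.55 on glycerol. Of the 2085 genes higher on glycerol, 1115 were also higher on glucose, which is 53.5% of the glycerol list and 74.5% of the glucose list; 1160 genes were lower on both (51.8% and 75.8% of the lists). Opposite calls were made for 48 genes higher and 106 lower on glycerol. Across the 6537 genes the log2 fold changes of the 2 comparisons, which have no library in common, had a Pearson r of 0.58 and a Spearman rho of 0.64; genes are not independent replicates, and these values describe the tables. A test of the difference itself called 1831 genes (28%), 917 with a larger value on glycerol and 914 with a smaller one. The share with a larger value, 50.1%, moved either way with the processing. It was 60.1% with the length offset, 44.6% with DESeq2, 44.4% with RLE scaling and 42.0% with limma.

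Of the 71 symbols, 23 were called for the difference between carbon sources, 11 with a larger value on glycerol and 12 with a smaller one. Of all genes, 28% were called. SWI5 differed most. On glucose it had 45.6, 38.1 and 53.6 CPM at pH 3.5 and 14.7 and 13 CPM at pH 5.5, so that it rose with acid there (1.73 ± 0.17), and the difference of the effects was -4.58 ± 0.23 (adjusted p = 2.19e-14). RLM1, whose fall on glycerol was not called with the length offset, rose on glucose, with 72.5, 68.8 and 64.8 CPM at pH 3.5 and 46.7 and 43.4 CPM at pH 5.5 on glucose (0.61 ± 0.15; difference -1.09 ± 0.21, adjusted p = 0.000199). STP3 and IXR1 rose strongly on glucose (2.16 ± 0.27 and 2.56 ± 0.17), and the differences were -2.45 ± 0.34 and -2.05 ± 0.21. The STP3 level on glucose was 18.5 to 19.4 CPM at pH 3.5 and 2.11 to 6.24 CPM at pH 5.5, while all 6 glycerol libraries had 14.2 to 21.3 CPM. With only 2 glucose libraries at pH 5.5, the STP3 difference was -1.89 without replicate 1 and -3.45 without replicate 3.

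RIM101 fell with acid on either carbon source. On glucose it had 155, 147 and 130.2 CPM at pH 3.5 and 811 and 804 CPM at pH 5.5 (-2.49 ± 0.14), and the difference from glycerol was not called (-0.45 ± 0.18, adjusted p = 0.0654). MHY1 fell less on glucose, with 1055, 950.4 and 983 CPM at pH 3.5 and 2699 and 2751 CPM at pH 5.5 (-1.45 ± 0.38). Its difference of -1.61 ± 0.53 (adjusted p = 0.0241) was lost without either of the 2 glucose libraries at pH 5.5 (adjusted p = 0.0775 without replicate 1 and 0.071 without replicate 3). Of the rises, YAS1 was larger on glycerol by 2.12 ± 0.38 (adjusted p = 0.0001), since on glucose the pH 5.5 libraries already had 10.6 and 11.1 CPM. OPI1 (1.37 ± 0.34), HAP1 (1.09 ± 0.30) and PUT3 (1.02 ± 0.19) were higher at pH 3.5 on glycerol and were not called on glucose. RSF2 was the reverse case, lower on glucose (-1.21 ± 0.15) and not called on glycerol, with a difference of 1.01 ± 0.20.

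Of genes without a symbol, YALI0A00176g showed the sharpest contrast between carbon sources. On glycerol it had 0.659, 0.37 and 0.606 CPM at pH 3.5, from 5 to 8 reads, and 597, 616 and 545 CPM at pH 5.5. On glucose it had 18.3, 17.5 and 31.9 CPM at pH 3.5 and 32.8 and 24.8 CPM at pH 5.5, with no call (-0.33 ± 0.30; difference -9.75 ± 0.56, adjusted p = 9.09e-13). YALI0C23254g had 21.2, 19.3 and 10.3 CPM at pH 3.5 and 7396, 6882 and 6448 CPM at pH 5.5 on glycerol, but 2458 to 2972 CPM at pH 3.5 and 3054 to 3111 CPM at pH 5.5 on glucose (difference -8.47 ± 0.45). In the other direction, YALI0D04873g had 232, 209 and 183 CPM at pH 3.5 and 67.3, 68.3 and 67.3 CPM at pH 5.5 on glycerol, and on glucose 49.7 to 54.9 CPM at pH 3.5 and 217 to 235 CPM at pH 5.5 (difference 3.72 ± 0.45). YALI0F29975g differed by 3.62 ± 0.73, on few reads: its pH 5.5 libraries on glycerol had 0 to 37 reads, and leaving out 1 library at a time gave 3.16 to 5.32, the highest without replicate 3 of that group.

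In DSM-21175 on glycerol the effect of pH was smaller across the genome. There 1878 genes (28.7%) were called, and the median absolute log2 fold change was 0.24. Of the genes higher in DSM-3286, 720 were also higher in DSM-21175 (34.5% of the DSM-3286 list and 71.8% of the DSM-21175 list), and 667 were lower in both (29.8% and 76.2%). Calls were opposite for 31 genes higher and 79 lower in DSM-3286, and the log2 fold changes had a Pearson r of 0.46 and a Spearman rho of 0.54 across genes. The difference between the strains was called for 2722 genes (41.6%), 1299 with a larger value in DSM-3286 and 1423 with a smaller one. The share with a larger value was 47.7%. It was 59.7% with the length offset, 45.5% with DESeq2, 45.4% with RLE scaling and 50.8% with limma.

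Of the 71 symbols, 29 were called for the difference between the strains, 9 with a positive value and 20 with a negative one. Of all genes, 41.6% were called, and 21.8% had a called negative value. RIM101 had 124, 131 and 92 CPM at pH 3.5 and 301, 251 and 368 CPM at pH 5.5 in DSM-21175. It fell there too (-1.40 ± 0.12), by less than in DSM-3286 (difference -1.53 ± 0.17, adjusted p = 7.94e-08), and the strains lay apart at pH 5.5 rather than at pH 3.5. MHY1 was low in DSM-21175 whatever the pH, with 15.3, 18.3 and 12.7 CPM at pH 3.5 and 16.2, 26.1 and 38.6 CPM at pH 5.5, and was not called (-0.81 ± 0.37; difference -2.26 ± 0.51, adjusted p = 0.000983). SWI5 was low there as well, at 2.71 to 3.67 CPM at pH 3.5 and 2.49 to 4.26 CPM at pH 5.5 (difference -2.71 ± 0.24, adjusted p = 1.45e-09). ARG81 had 39.8 to 45.8 CPM at pH 3.5 and 48.7 to 51.3 CPM at pH 5.5, a small fall (-0.25 ± 0.08; difference -1.47 ± 0.12). NRG1, a repressor of filamentous growth in Candida albicans, had a difference of -1.39 ± 0.44 (adjusted p = 0.0125), with DSM-21175 at 10.5 to 16.1 CPM at pH 3.5 and 4.02 to 7.93 CPM at pH 5.5. RLM1 was higher with acid in DSM-21175 (0.65 ± 0.14) and lower in DSM-3286, with a difference of -1.13 ± 0.19.

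YAS1 rose with acid in DSM-21175 as well (1.07 ± 0.25), and the rise in DSM-3286 was larger by 1.86 ± 0.37 (adjusted p = 0.000243). In DSM-21175 it had 9.32, 13 and 4.49 CPM at pH 3.5 and 4.64, 4.15 and 4.02 CPM at pH 5.5. OPI1 (difference 1.47 ± 0.33), PTR3 (1.16 ± 0.16) and MAC1 (0.83 ± 0.17) were not called in DSM-21175, and PUT3 rose less there (0.39 ± 0.12; difference 0.87 ± 0.18). OPI1 and PTR3 were already high in DSM-21175 at pH 5.5, at 202 to 246 and 134 to 159.6 CPM. HOY1 fell in both strains (-1.11 ± 0.14 in DSM-3286 and -1.04 ± 0.14 in DSM-21175), and the difference of -0.08 was not called (adjusted p = 0.779). Of the GATA genes, GZF3 alone was called lower in DSM-21175 (-0.64), and the difference was called for all but GZF1. In DSM-3286 on glucose, 4 of the 5 GATA genes were called lower, where 23.4% of all genes were. Their difference between carbon sources was called for GZF4 only (-0.65 ± 0.23).

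Among genes without a symbol, YALI0D26466g and YALI0F19030g went opposite ways in the strains. YALI0D26466g had 4232, 4823 and 4994 CPM at pH 3.5 and 451, 288 and 223 CPM at pH 5.5 in DSM-3286, against 1.46, 1.74 and 2.92 CPM at pH 3.5 and 59.5, 52 and 9.66 CPM at pH 5.5 in DSM-21175 (difference 8.19 ± 0.81, adjusted p = 3.23e-08). YALI0F19030g had 1009.9, 931 and 598 CPM at pH 3.5 and 31.3, 21.6 and 14.7 CPM at pH 5.5 in DSM-3286, against 15 to 18.8 CPM at pH 3.5 and 24.3 to 70.1 CPM at pH 5.5 in DSM-21175 (difference 6.74 ± 0.56). YALI0A00176g and YALI0C23254g were at or below 1 CPM in every DSM-21175 library on glycerol at 32 h. Their fitted differences, -12.07 and -8.91, therefore set a large fall in DSM-3286 against a gene with almost no reads, and their size depends on how the fit treats low counts: for YALI0A00176g, limma on the deposited log2 values gave -7.51, and edgeR without DSM-21175 pH 5.5 replicate 1 gave -12.88. With limma its difference between carbon sources was -6.97, and the difference of YALI0D26466g between strains was 7.38.

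**Figure D5:**
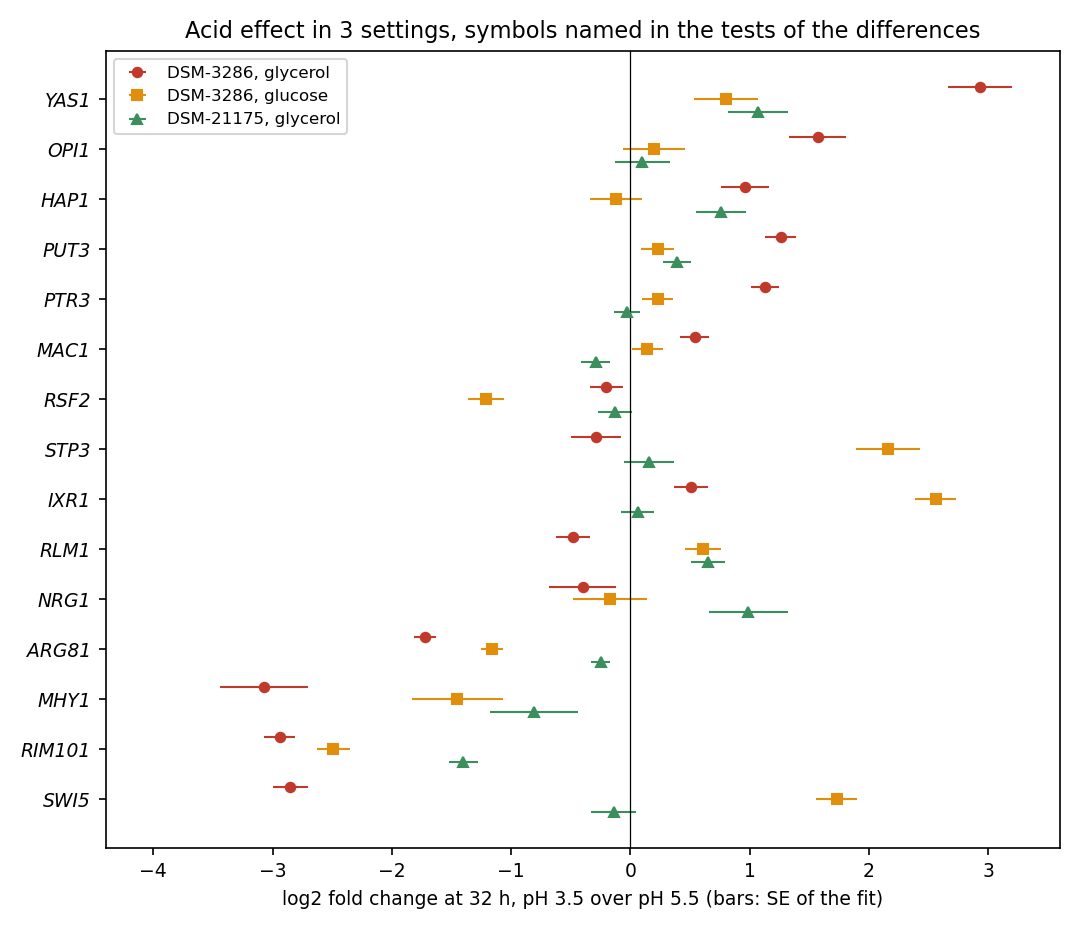
Log2 fold change at 32 h (pH 3.5 over pH 5.5; bars are the SE of the fit) in DSM-3286 on glycerol (red circles), DSM-3286 on glucose (orange squares) and DSM-21175 on glycerol (green triangles), for the symbols named in the tests of the differences. SWI5 and RLM1 have called values on both sides of 0. STP3, NRG1, HAP1, MAC1 and PTR3 also have values on both sides, with calls in a single direction. RIM101 is below 0 in all 3, and YAS1 is above 0 in all 3 and largest in DSM-3286 on glycerol.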

How the data were processed

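The authors deposited raw counts per gene (per the file headers) for 35 libraries, and log2 values that matched log2(FPKM + 1) from those counts within 0.02 for 99.9% of entries and supplied the FPKM. Tools listed, per the submitters' processing notes, were featureCounts 1.5.1, BWA 0.7.12-r1039 and edgeR. Overlapping or near-identical genes may share reads, since build and strand setting are not given in the sources here. Libraries were grouped by their labels.

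Counts were fitted in edgeR 4.0.16 (R 4.3.3; TMM; filterByExpr over 12 groups, which kept 6537 of 7132 genes) in 1 robust quasi-likelihood model of all 35 libraries, with 23 residual degrees of freedom. A call means a Benjamini-Hochberg adjusted p, over the genes tested, below 0.05. SEs were derived from F as |log2 fold change| over its square root. CPM use TMM-scaled totals. The test was run on simulated counts of 6537 genes, with 100 changed 2-fold and 100 changed 4-fold. For the pH effect it recovered 86 and 95 of these, with 9 false calls. It recovered 67 and 90 for the difference between carbon sources, and 70 and 89 for that between strains. Far more genes were called in the data (66.2% for the pH effect), so the simulation does not cover that setting. Replicates differed beyond sampling noise (chi-square per gene at least 7.3), so each library counts once. Depth was 6.7 to 15.06 megareads in the 6 libraries; genes with a few reads are uncertain from counting alone.

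Genes and lists were chosen with earlier results of these data known. The 71 symbols were paired with locus tags by their values (largest difference 0.0052, next best at least 0.6507) and sorted by role by hand. Planned metabolic lists were not used, since neither files nor reference pair their symbols with tags. RefSeq's gene table matched 0 locus tags and 6682 gene IDs, used for gene type and order. Named genes are up to 4 called members of a role group, the 5 largest rises and falls among symbols, the 2 largest of each without a symbol (mean log2 CPM of 3 or more), likewise for the 2 differences, and RIM101; other symbols are named to account for every member, after their values were seen. Alternatives were RLE scaling, no filter, DESeq2 1.42.0, limma 3.58.1 on the log2 values, only the libraries compared, a replicate block, a 2-fold threshold, leaving out each library and, added after seeing the data, a length offset (per library, a loess curve of log2 CPM on length over coding genes).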

Additional observations from a re-analysis of the deposited data

Results flagged for a closer look

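Values flagged because the effect of pH differed between DSM-3286 on glycerol and another group in a test of the difference itself are log2 differences (DSM-3286 on glycerol minus the other). Against DSM-3286 on glucose they were 2.12 for YAS1, 1.37 for OPI1, 1.09 for HAP1, 1.02 for PUT3 and 1.01 for RSF2, and -4.58 for SWI5, -2.45 for STP3, -2.05 for IXR1, -1.61 for MHY1 and -1.09 for RLM1. Genes without a symbol gave 3.72 (YALI0D04873g), 3.62 (YALI0F29975g), -9.75 (YALI0A00176g) and -8.47 (YALI0C23254g). Against DSM-21175 on glycerol they were 1.86 for YAS1, 1.47 for OPI1, 1.16 for PTR3, 0.87 for PUT3 and 0.83 for MAC1, and -2.71 for SWI5, -2.26 for MHY1, -1.53 for RIM101, -1.47 for ARG81 and -1.39 for NRG1. Here genes without a symbol gave 8.19 (YALI0D26466g), 6.74 (YALI0F19030g), -12.07 (YALI0A00176g) and -8.91 (YALI0C23254g). YAS1, OPI1, PUT3, SWI5, MHY1, YALI0A00176g and YALI0C23254g are on both lists, and both lists rest on the same 6 DSM-3286 glycerol libraries. Each list holds only the largest called differences of each sign, up to 5 symbols and 2 genes without a symbol. A symbol called in both tests, such as RLM1, can therefore be missing from a list. The groups of 3 libraries are too small for a check of single outlying libraries.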

How the results depend on the processing

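The counts of genes and symbols called stayed within 1.5 times of the reported ones under all alternatives run but 1. They moved further when at least a 2-fold change was required: 1562 genes were then called for the pH effect (586 higher and 976 lower, 16 symbols), 577 for its difference between carbon sources (10 symbols) and 849 for that between strains (12 symbols). Leaving out 1 library at a time gave 3984 to 4144 genes for the pH effect (1923 to 2007 higher, 2061 to 2162 lower, 46 to 49 symbols), 1402 to 1733 for the difference between carbon sources (17 to 24 symbols) and 2344 to 2907 for that between strains (25 to 30 symbols). The labels do not say that a replicate number marks a shared batch, so the numbers were not taken as pairs. Same-numbered libraries of the 2 groups deviated together at r = -0.002, 0.105 and -0.008. A fit of only the libraries compared called 4561, 2442 and 2362 genes for the 3 tests. With the replicate number added as a block it called 4511, 2311 and 2151. Against the fit of all 35 libraries, both of these fits lost CAT8 and gained NRG1, TYE7 and SFP1 among the symbols. Among symbols called with or without it, the length offset turned the sign of 5, TUP1 (0.26), CAT8 (0.12), ECM5 (0.13), KAP122 (0.30) and SEF1 (0.33). In the comparison itself only CAT8 and ECM5 of these had been called; the other 3 were called with the offset only. Depth limits YHP1 and RME1, at 0.634 to 2.42 CPM in the 6 libraries, most among the symbols.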

Other observations

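Some genes called lower by at least 4-fold lie side by side. Of 6008 genes that could be placed in the order of the RefSeq annotation, 217 belonged to this set, and 26 of these (12.0%) had another member as a neighbour, against 7.04% of all placed genes; the longest run was 3 genes, and there were 2 such runs. Of 83 genes at least 4-fold higher, 2 (2.41%) had such a neighbour, against 2.76% of all placed genes. These shares are descriptions with no test.

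The mean level in growth phase gives a further reading of genes that changed. RIM101 and MHY1 at pH 3.5 and 32 h (mean FPKM 44.5 and 491) lay near growth-phase levels at pH 5.5 (52.7 and 577), and far from pH 5.5 at 32 h (341 and 4106). SWI5 had 6.38 FPKM at pH 3.5, 46.2 at pH 5.5 and 59.8 in growth phase, and OPI1 had 84.4, 28.2 and 8.49 in the same order.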
